A study of Brassica napus with 12 samples.

Results

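The first genes of chromosomes C9 and A9 of rapeseed (Brassica napus) were followed in 4 inbred lines, gene by gene in the order of their IDs. The members are the genes measured in all 12 libraries with IDs from BnaC09g00040D to BnaC09g02810D, which are 98, and from BnaA09g00370D to BnaA09g02950D, which are 123. These 221 genes are among 43708 genes measured in every library. They were chosen from the levels themselves, because C9 genes there were low and A9 genes high in A28 and YH25005. The levels of A28 and YH25005 against R8Q10 and SW are therefore given as a description. Where calls of the fit in that direction are counted, the share of all genes stands beside them and nothing is read from either. The differences between A28 and YH25005 and between R8Q10 and SW were tested.

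RNA of 24-day-old seeds, counted from pollination, was sequenced in 3 libraries each of A28, R8Q10, SW and YH25005. All plants were grown in the same field and selfed under bags, and no line was treated. The series sets high against low linolenic acid lines, but which lines are high and which are low is not in the labels. The labels name the tissue as immature seeds whereas the extraction protocol speaks of embryos, and no marker gene of either could be matched to an ID, so the tissue was not checked. Nothing states whether replicates came from separate plants, so that each p-value reflects the scatter among libraries alone, which may be technical.

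Rapeseed is an allotetraploid that carries an A genome, shared with Brassica rapa, and a C genome, shared with Brassica oleracea. Chromosomes of the A genome and of the C genome hold long stretches of corresponding genes, called homoeologues, and the starts of A9 and C9 are known as such a pair. In rapeseed, pairing between homoeologous chromosomes at meiosis is known to replace a stretch of the C genome by a further copy of its A counterpart, or the reverse, and stretches can also be lost. DNA was not measured here, and the counts cannot tell apart a gene that is absent from the genome and a gene that is silent. In bulk seed RNA, fewer cells of a type and less RNA per cell cannot be told apart either.

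Total counts ran from 30150457 to 40762254 per library, so that 3 counts, the limit that a count of 0 allows, stood for 0.0736 to 0.0995 CPM (counts relative to the total of the library) before scaling. Levels are given in CPM scaled between libraries by TMM factors, which were 0.766 to 0.914 in YH25005 and 1.00 to 1.14 in the other lines. On the scaled levels, 3 counts therefore stood for more CPM in YH25005 and for less in the other lines. Without these factors the median gene of YH25005 lay 0.35 lower on the log2 scale, and all values of YH25005 are relative to that scaling. Differences are on the scale log2(CPM + 0.5), which understates the change of weakly expressed genes. Here the reference is the mean of the R8Q10 and SW means, taken of log2 values for differences and of CPM for percentages and limits. These measures part where R8Q10 and SW differ. In the second C9 block described below, A28 had a median difference of -0.63 and a median of 39.6% of the reference. Stretches were found by a scan for the run of neighbouring genes that summed to the lowest or highest score. A gene's score was its difference from the reference beyond an offset of 1 for low or 0.5 for raised stretches. Of the 221 members, 12 matched the RefSeq gene table of another assembly (Da-Ae) by ID, 11 of them on the chromosome in their ID and in the order of their numbers, and none had a gene name. Members are therefore given by ID and without a function. How reads that match both homoeologues were counted is not known here, so low levels of a C9 copy may include reads from its A9 copy, which was not tested.

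Both A28 and YH25005 had a low stretch at the start of C9, but its far edge differed between the lines. In A28 it ran from BnaC09g00020D to BnaC09g02820D, over 101 genes with a median difference of -2.28 from the reference. In YH25005 it ran from BnaC09g00040D to BnaC09g02350D, over 79 genes with a median difference of -2.55. Taken library by library, all 3 YH25005 libraries gave the same first and last gene. The 3 A28 libraries started at BnaC09g00020D or BnaC09g00030D and ended at BnaC09g02810D or BnaC09g02820D. The near edge was thus within 2 genes in both lines, and the far edge of A28 lay beyond that of YH25005 in each library. With an offset of 2 in place of 1 in the scan, the A28 stretch ran from BnaC09g01120D to BnaC09g02730D, over 60 genes, and YH25005 kept its edges.

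**Figure D1:**
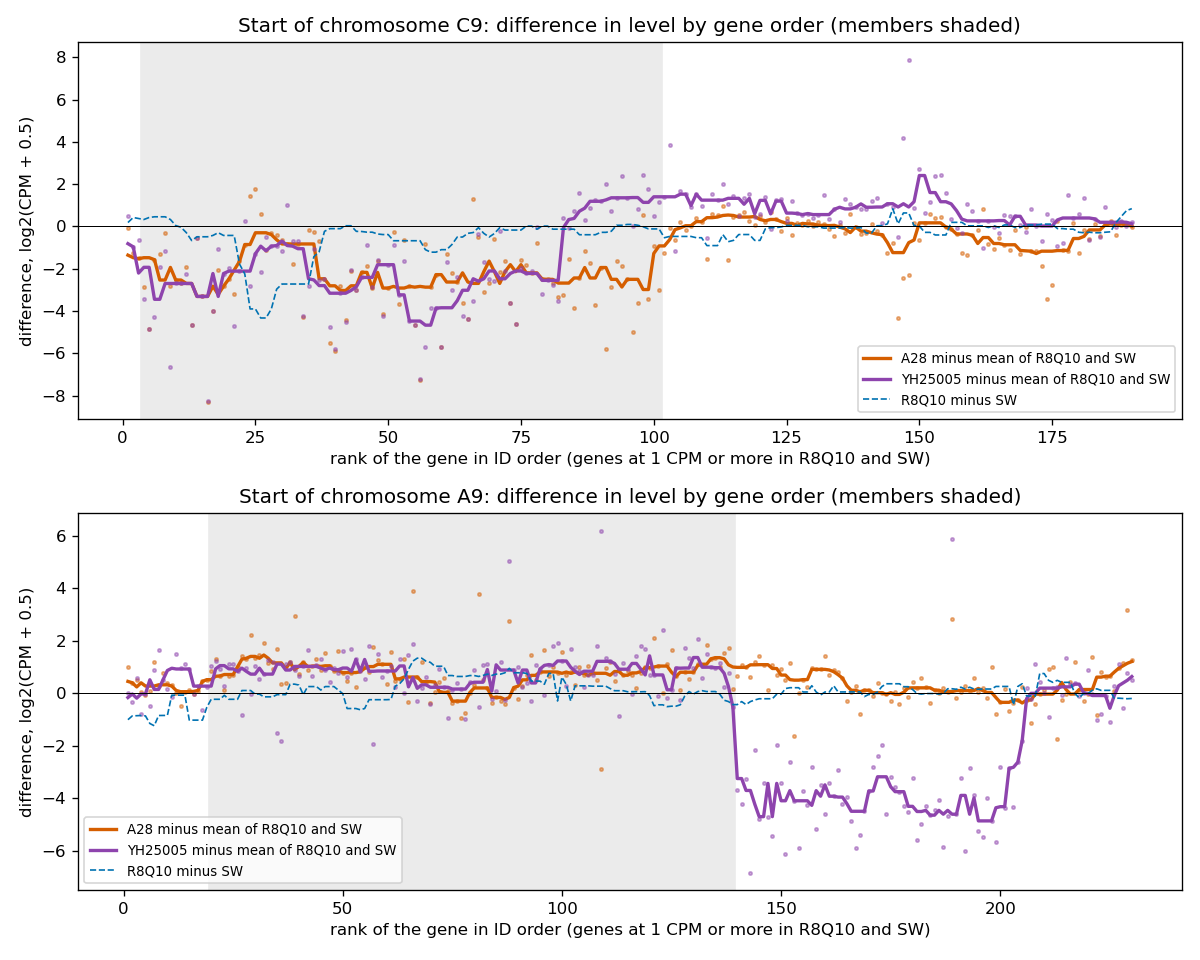
Difference in level, log2(CPM + 0.5), for each gene at the start of C9 (upper panel) and A9 (lower panel), plotted against the rank of the gene in ID order among genes at 1 CPM or more in R8Q10 and SW. Points are genes, lines are running medians over 7 genes, the dashed line is R8Q10 minus SW, and members are shaded. A28 and YH25005 run together below 0 on C9 until the YH25005 line crosses to above 0 while A28 stays low, and on A9 both lie above 0 until YH25005 drops below.

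At the near edge, the genes just outside the ID range carried intermediate levels. BnaC09g00020D had 55.4, 36.6 and 22.9 CPM in A28 and 38.1, 51.5 and 42.0 in YH25005, against 87.1 to 107 in R8Q10 and 63.7 to 80.0 in SW. BnaC09g00030D had 11.4 to 25.9 CPM in A28 and 31.0 to 39.2 in YH25005, against 46.4 to 60.5 in the 6 reference libraries. Both genes were lower in A28 and YH25005 than in every reference library, but neither was near 0. BnaC09g00010D, the first C9 gene measured in all libraries, had means of 11.1 CPM in A28, 10.4 in R8Q10, 14.1 in YH25005 and 10.1 in SW. The first member, BnaC09g00040D, had 0.356, 0 and 0.508 CPM in A28 and 0 in all 3 YH25005 libraries, against 3.19 to 8.04 in the reference libraries. The step from BnaC09g00030D to BnaC09g00040D was therefore a step to near 0 in both lines.

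At the far edge, the lines parted between neighbouring genes. BnaC09g02350D had 3.38 to 5.68 CPM in A28 and 2.88 to 4.57 in YH25005, against 41.6 to 56.2 in R8Q10 and SW, and was low in both. The next member, BnaC09g02440D, had 0.245, 0.0883 and 0.222 CPM in A28 and 6.93, 8.61 and 8.34 in YH25005, against 5.03 to 7.76 in R8Q10 and SW. In the 19 members from this gene on, the YH25005 mean was above both reference means in 17, and the A28 mean was above 50% of the reference in 2. In A28, BnaC09g02810D, the last member, had 0.445 to 0.471 CPM against 5.33 to 10.6 in R8Q10 and SW, and 14.9 to 18.1 in YH25005. BnaC09g02820D, just outside the ID range, had 3.50 to 5.72 CPM in A28, 2.61 to 16.8 in R8Q10, 28.8 to 30.4 in YH25005 and 12.9 to 13.9 in SW. A28 overlapped R8Q10 there. BnaC09g02850D, the next gene of at least 5 CPM, had means of 5.76 CPM in A28, 12.8 in R8Q10, 3.82 in YH25005 and 6.42 in SW.

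From the edges of the scans, which were set after the data had been seen, the C9 members fall into 4 blocks: 19 genes from BnaC09g00040D to BnaC09g00380D, 15 from BnaC09g00400D to BnaC09g00970D, 45 from BnaC09g01120D to BnaC09g02350D, and 19 from BnaC09g02440D to BnaC09g02810D. In the first block the median difference from the reference was -2.69 in A28 and -2.69 in YH25005. In the third block it was -2.63 in A28 and -2.85 in YH25005. In the second the reference lines themselves differed, and in the fourth A28 stood at -2.50 and YH25005 at 1.14. As a description of the choice, 69 of the 98 C9 members were lower in A28 than in R8Q10 and than in SW in the edgeR fit, against 3.77% of all genes, and 58 were lower in YH25005, against 5.17%. All 3 A28 libraries lay below all 6 reference libraries for 73 members (5.96% of all genes did) and all 3 YH25005 libraries for 59 (11.6% of all genes). These counts restate how the members were chosen.

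**Figure D2:**
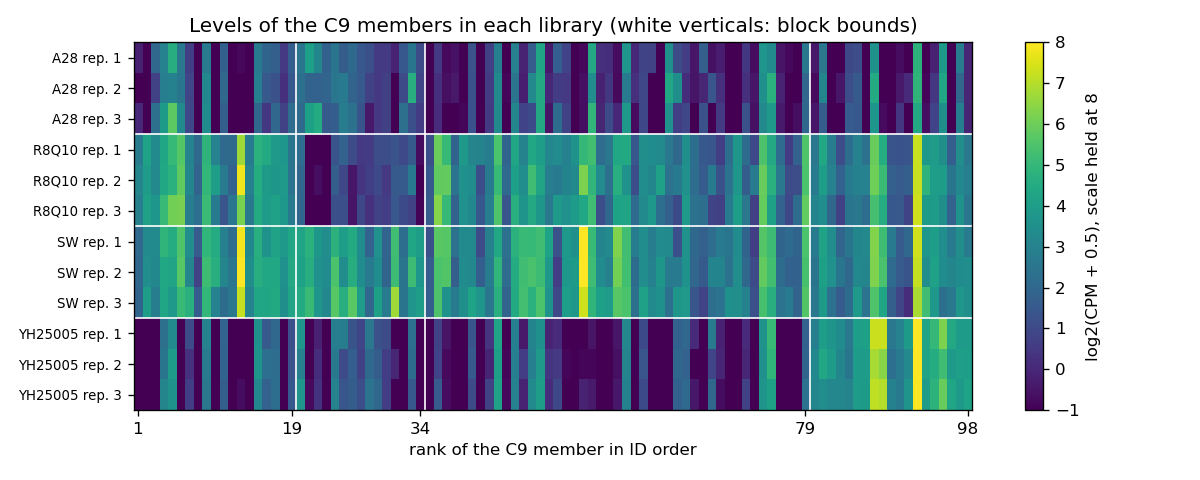
Level of each of the 98 C9 members, log2(CPM + 0.5) as colour, in ID order from left to right, with 1 row per library. White vertical lines part the 4 blocks of 19, 15, 45 and 19 genes. A28 is darker than SW in all 4 blocks, YH25005 is darker in the first 3 and brighter in the fourth, and R8Q10 is dark mainly in the second block.

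Whether the stretch was equally deep was read from the 79 genes low in both lines. Summed over these genes, A28 kept 278.6 ± 39.2 CPM (SD, n = 3) and YH25005 kept 202.0 ± 7.07, against 1102 ± 106 in R8Q10 and 1795 ± 164 in SW. Those sums are 19.2% of the reference sum in A28 and 14.0% in YH25005. The median gene kept 13.4% of its reference level in A28 and 2.52% in YH25005. From BnaC09g00040D to BnaC09g00380D it kept 12.5% in A28 and 0.0217% in YH25005. From BnaC09g00400D to BnaC09g00970D it kept 39.6% in A28 and 22.6% in YH25005. From BnaC09g01120D to BnaC09g02350D it kept 8.42% in A28 and 0.520% in YH25005. The scale log2(CPM + 0.5) understates such differences near 0 CPM. A28 had at most 3 counts over its 3 libraries in 15 of the 79 genes and YH25005 in 33, with 14 genes in both sets. Across all genes at 1 CPM or more in the reference, 1.08% had so few counts in A28, 1.1% in YH25005 and 0.186% in both. The 45 genes above 3 counts in both lines, a choice made after the values were seen, kept 23.0% of the reference level in the median in A28 and 22.6% in YH25005. That choice left out 19 genes at or under 3 counts in YH25005 alone and 1 in A28 alone, so that it sets these medians in part. Of these 45, 22 had the higher mean in A28 and 23 in YH25005.

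In the edgeR quasi-likelihood test of A28 against YH25005, 46 of the 98 C9 members passed an adjusted p of 0.05, or 46.9%, against 27.2% of all genes. This contrast was partly in view when the members were chosen, since each line had been set against the others. The fourth block gave 19 of the 46. It is in the range because the range runs on to near the A28 edge, past that of YH25005. The choice of the range thus sets this share in part. Among the 79 genes low in both lines 27 passed, or 34.2%. In A28, 20 of them were higher, or 25.3%, against 14.5% of all genes, and 7 were lower, or 8.86%, against 12.7%. Of the 20 genes higher in A28, 15 had 0 counts in YH25005 and mean levels of 0.148 to 14.0 CPM in A28. The 7 genes lower in A28 differed by -1.0 to -2.11 on the log2 scale. With the compared lines fitted alone, the 46 was 36 and the 27 was 18, with 14 higher and 4 lower in A28. The share of all genes in that fit is not given.

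**Figure D3:**
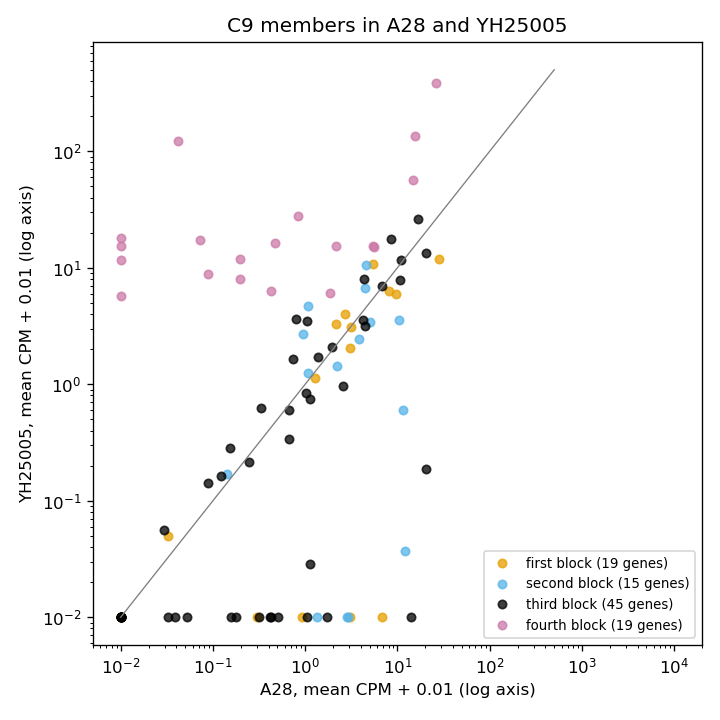
Mean level of each C9 member in A28 (horizontal) and YH25005 (vertical), CPM + 0.01 on log axes, coloured by block, with the line of equal levels. Genes of the first 3 blocks scatter about the line or lie at 0 CPM in YH25005, and the 19 genes of the fourth block lie above the line.

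Some genes of high reference level were close to 0 in both lines. BnaC09g00220D had 0.0668, 0 and 0 CPM in A28 and 0, 0 and 0.120 in YH25005, against 72.2 to 226 in R8Q10 and 147 to 332 in SW. BnaC09g01520D had 0.0668 to 0.147 CPM in A28 and 0 to 0.401 in YH25005, against 20.0 to 73.9 in R8Q10 and 162 to 345 in SW. Levels of both genes in A28 and YH25005 overlapped and were close to the level of a few counts. Others kept a measurable level in both lines. BnaC09g02280D had 9.02 to 12.6 CPM in A28 and 11.1 to 12.2 in YH25005, against 40.9 to 60.2 in R8Q10 and SW. BnaC09g01130D had 0.604 to 0.935 CPM in A28 and 1.21 to 2.48 in YH25005, against 43.6 to 82.0 in the reference libraries. Its A28 libraries all lay below those of YH25005 (log2 fold change -1.15 ± 0.31 SE, edgeR adjusted p = 0.020).

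Other genes were at 0 in YH25005 and present in A28. BnaC09g00090D had 5.27, 5.63 and 9.21 CPM in A28 and 0 counts in YH25005, against 33.1 to 71.1 in the reference libraries. Taken against 3 counts over the 3 YH25005 libraries, its level in YH25005 was at least 193-fold lower than in A28 (edgeR adjusted p = 4.27e-06). BnaC09g01610D had 10.3 to 30.1 CPM in A28 and 0.0563 to 0.281 in YH25005, against 29.2 to 38.6 in the reference libraries, which A28 overlapped at its upper end. A28 and YH25005 did not overlap for this gene (log2 fold change 6.91 ± 0.53 SE, edgeR adjusted p = 6.24e-06). BnaC09g01930D was higher in A28, at 10.9, 20.0 and 11.2 CPM, than in any reference library, at 2.90 to 9.17, and had 0 counts in YH25005. It was the member with the largest fitted difference in favour of A28, with YH25005 at least 403-fold lower (edgeR adjusted p = 1.24e-05).

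A few genes inside the stretch stayed near the reference level. In A28, 14 of the 79 genes were above 50% of the reference, and in YH25005 7 were. BnaC09g01370D had 19.3 to 21.2 CPM in A28 and 10.9 to 15.4 in YH25005, against 13.0 to 18.5 in R8Q10 and 35.8 to 43.5 in SW. R8Q10 and YH25005 overlapped there. BnaC09g02300D had 9.31 to 26.3 CPM in A28 and 17.0 to 33.0 in YH25005, against 16.9 to 25.4 in R8Q10 and 25.3 to 38.4 in SW, so that all 4 lines overlapped in part. BnaC09g00080D had 7.27 to 52.6 CPM in A28, and 9.38 to 14.7 in YH25005, against 13.6 to 67.1 in R8Q10 and SW, and both lines overlapped the reference libraries. The longest run of genes less than 1 log2 unit below the reference was 4 genes in A28 and 3 in YH25005, both in the second block. That block also held 6 of the 14 A28 genes and 2 of the 7 YH25005 genes above 50% of the reference. There the reference mean includes the low R8Q10, at 7.03% of the SW sum. Against SW alone the block medians were -1.67 in A28 and -2.63 in YH25005.

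In the fourth block A28 and YH25005 stood on opposite sides of the reference lines. Summed over its 19 genes, A28 had 73.6 ± 13.7 CPM (SD, n = 3), R8Q10 357 ± 31.9, SW 375 ± 48.7 and YH25005 897 ± 122. BnaC09g02690D, the most abundant C9 member over all 12 libraries together, had 21.0 to 29.0 CPM in A28, 152 to 163 in R8Q10, 355 to 434 in YH25005 and 116 to 162 in SW. A28 lay below and YH25005 above all reference libraries (A28 minus YH25005, log2 fold change -3.89 ± 0.25 SE, edgeR adjusted p = 1.76e-06). BnaC09g02550D showed the same order, with 11.7 to 22.1 CPM in A28, 39.7 to 77.6 in R8Q10 and SW, and 114 to 155 in YH25005. BnaC09g02460D had 0 counts in A28 and 8.38 to 14.7 CPM in YH25005, against 3.54 to 11.1 in the reference libraries. In all, 6 members were lower in A28 and higher in YH25005 than both reference lines, against 0.22% of all genes, and 4 had 0 counts in A28. All 19 were lower in A28 than in YH25005, a count that the choice of the block from these edges fixes in part. The p-value given for BnaC09g02690D depends on the same choice and adds no support.

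The raised levels of YH25005 went on past the members. The scan placed them from BnaC09g02460D to BnaC09g03960D, over 71 genes with a median difference of 1.14. This stretch was not scanned again with other scalings or offsets. Its height depends on the TMM factors, without which the median gene of YH25005 lay 0.35 lower. In the 55 genes after the last member, from BnaC09g02820D to BnaC09g03960D, the median difference was 1.07 in YH25005, 0.06 in A28 and -0.03 in R8Q10. The low levels of A28 ended at the edge described above, and the scan found no raised C9 stretch in A28.

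R8Q10 and SW, the lines that served as reference, differed from each other inside the C9 range. Of the 98 C9 members, 25 passed the edgeR test between R8Q10 and SW, or 25.5%, near the 23.6% of all genes. They were unevenly split, with 23 lower in R8Q10, or 23.5% against 12.4% of all genes, and 2 higher, against 11.2%. The second block held 15 of these 23. Outside it, 8 of 83 members were lower in R8Q10, or 9.64%, and 2 were higher. The bounds of the second block, BnaC09g00400D to BnaC09g00970D, came from a scan of R8Q10 itself, run after the data had been seen, so that the count of 15 of 15 is a description.

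Over the second block the sums were 20.6 ± 3.43 CPM in R8Q10 (SD, n = 3), 37.6 ± 6.12 in YH25005, 64.2 ± 6.16 in A28 and 293 ± 79 in SW. All 3 lines were thus below SW, at 7.03% of its sum in R8Q10, 12.8% in YH25005 and 21.9% in A28. In the authors' FPKM values the sums were 12.3 in R8Q10, 15.4 in YH25005, 70.7 in A28 and 186 in SW. A28 was less far below SW on that scale. BnaC09g00540D had 1.82 to 2.61 CPM in R8Q10, 2.83 to 5.24 in A28 and 5.69 to 7.73 in YH25005, against 26.7 to 50.5 in SW. R8Q10 lay lowest and SW highest without overlap (R8Q10 minus SW, log2 fold change -4.21 ± 0.34 SE, edgeR adjusted p = 3.66e-06). BnaC09g00410D had 0 counts in R8Q10 and 0, 0 and 0.0801 CPM in YH25005, against 16.3, 3.12 and 16.7 in A28 and 23.8 to 33.5 in SW. R8Q10 was at least 1082-fold below SW for this gene (edgeR adjusted p = 5.12e-05). The p-values of BnaC09g00540D and BnaC09g00410D restate in part the scan of R8Q10 that set the block. BnaC09g00450D had 0 counts in R8Q10 and in YH25005, 2.45 to 3.29 CPM in A28 and 8.60 to 10.1 in SW. Measured against SW alone, the median difference in this block was -1.67 in A28, -2.63 in YH25005 and -2.97 in R8Q10, so the shallow values of A28 and YH25005 against the mean of both reference lines (-0.63 and -1.05) are taken against a mean that includes the low R8Q10.

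**Figure D4:**
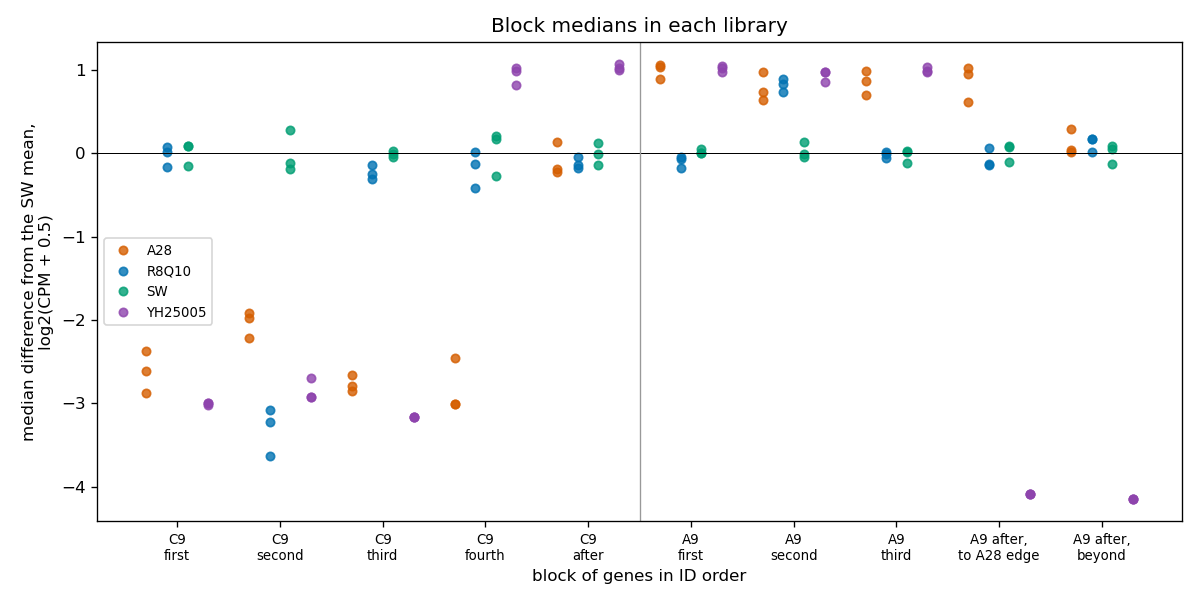
Median difference of each library from the SW mean, log2(CPM + 0.5), for the blocks of C9 (left of the grey line) and A9 (right), with 3 points per line. R8Q10 joins A28 and YH25005 in the second block of both chromosomes, YH25005 alone is raised in and after the fourth C9 block, and YH25005 alone drops after the A9 members.

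On A9 the same lines were raised by a smaller and more even amount. The median difference from the reference over the 120 of 123 A9 members at 1 CPM or more in the reference was 0.81 in A28, with quartiles of 0.44 and 1.20, and 0.89 in YH25005, with quartiles of 0.24 and 1.19. The other members, BnaA09g00600D, BnaA09g01970D and BnaA09g02090D, were below that limit. As a description of the choice, 35 of 123 A9 members were higher in A28 than in R8Q10 and than in SW in the edgeR fit, against 2.25% of all genes, and 39 were higher in YH25005, against 4.74%. All 3 A28 libraries lay above all 6 reference libraries for 46 members (5.71% of all genes) and all 3 YH25005 libraries for 65 (13.6% of all genes). These counts restate how the members were chosen. The 35 was 13 with the compared lines fitted alone and 23 without replicate 1 of R8Q10, and the 39 was 25 without replicate 1 of YH25005. With library totals alone in place of the TMM factors the median of YH25005 was 0.52.

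The raised A9 stretch of A28 ran from BnaA09g00310D to BnaA09g03520D, over 146 genes, and that of YH25005 from BnaA09g00140D to BnaA09g02930D, over 132 genes. No run of YH25005 reached the minimum score with an offset of 0.75 in place of 0.5 or with library totals only, and with that offset the A28 stretch ran from BnaA09g00510D to BnaA09g01280D, over 43 genes. The near edge was loose. Single libraries placed it at BnaA09g00290D, BnaA09g00310D or BnaA09g00370D in A28 and at BnaA09g00140D or BnaA09g00370D in YH25005. BnaA09g00370D, the first member, had 49.7 to 68.2 CPM in A28 and 61.5 to 68.8 in YH25005, against 25.01 to 40.2 in R8Q10 and SW. BnaA09g00310D, just outside the range, had 5.88 to 6.59 CPM in A28 and 4.40 to 5.74 in YH25005, against 3.13 to 6.33 in R8Q10 and SW, and YH25005 overlapped both. BnaA09g02950D, the last member, was weak in all lines, with means of 1.85 CPM in A28, 1.01 in R8Q10, 0.967 in YH25005 and 2.55 in SW.

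The far edge on A9 was sharp in YH25005. Directly after the members, from BnaA09g03030D to BnaA09g04560D, YH25005 was low over 66 genes with a median difference of -4.16, and all 3 libraries gave these same edges. In the first 25 of these genes YH25005 had a summed level of 0 CPM, whereas A28 was still raised at 510 ± 48.6 CPM (SD, n = 3), against 295 ± 23.3 in R8Q10 and 303 ± 23.5 in SW. BnaA09g03060D, a gene beside the edge, had 68.0 to 137 CPM in A28, 37.7 to 66.8 in R8Q10, 58.8 to 67.6 in SW and 0 counts in YH25005. From BnaA09g03560D on, over 41 genes, the median difference of A28 was 0.05, and YH25005 had at most 3 counts in 38 of them. Near the end of the members YH25005 thus passed from low to raised on C9 and from raised to low on A9, whereas A28 passed back to the reference level beyond its own edges.

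Between A28 and YH25005, 32 of 123 A9 members passed the edgeR test, or 26.0%, near the 27.2% of all genes, with 19 higher in A28 and 13 lower. The count ranged from 13 to 55 when single libraries were left out, with 55 without replicate 2 of A28, 19 without replicate 3 of A28, 13 without replicate 1 of YH25005 and 15 without replicate 3 of YH25005. Among the members lower in A28, the largest difference was in BnaA09g02110D. It had 2.76, 36.8 and 1.78 CPM in A28, 60.1, 174 and 14.2 in R8Q10, 91.3, 85.2 and 10.9 in SW, and 4338.5, 2211.6 and 4864.5 in YH25005. YH25005 lay above all other libraries, and the other lines overlapped and varied widely (A28 minus YH25005, log2 fold change -8.11 ± 1.59 SE, edgeR adjusted p = 0.0037). BnaA09g01240D had 11.8 to 18.5 CPM in A28, 32.8 to 42.8 in R8Q10, 47.7 to 63.3 in YH25005 and 9.93 to 11.97 in SW. A28 was lower than YH25005 (log2 fold change -1.84 ± 0.22 SE, edgeR adjusted p = 1.38e-04). In the other direction, BnaA09g01110D had 1.62 to 17.5 CPM in A28, 0.338 to 1.32 in R8Q10, 2.06 to 3.31 in SW and 0 counts in YH25005, at least 250.2-fold below A28 in the mean.

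The most abundant A9 members did not all follow the median. BnaA09g02120D had 153 to 903 CPM in A28 and 429 to 589 in YH25005, against 51.2 to 225 in R8Q10 and 241 to 449 in SW, so that A28 overlapped both reference lines. BnaA09g02200D had 66.4 to 245 CPM in A28 and 125 to 152 in YH25005, against 36.1 to 111 in R8Q10 and SW. Its YH25005 libraries lay above all of R8Q10 and SW. BnaA09g01630D had 65.3 to 85.1 CPM in A28, 68.6 to 83.8 in YH25005, 95.8 to 102 in R8Q10 and 32.2 to 66.9 in SW, and R8Q10 was highest.

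Of 123 A9 members, 27 passed the edgeR test between R8Q10 and SW, or 22.0%, near the 23.6% of all genes. Of these, 21 were higher in R8Q10, or 17.1% against 11.2% of all genes, and 14 of the 21 lay in the second A9 block of 36 genes from BnaA09g01210D to BnaA09g01870D. This block was found by a scan of R8Q10 against SW after the data had been seen. Outside it, 7 of 87 members were higher, or 8.05%. Against SW the median difference in the block was 0.75 in R8Q10, 0.84 in A28 and 0.90 in YH25005. BnaA09g01300D, with means of 9.97 CPM in A28, 28.2 in R8Q10, 8.79 in YH25005 and 5.03 in SW, was among the largest of these differences (R8Q10 minus SW, log2 fold change 2.49 ± 0.55 SE, edgeR adjusted p = 0.0066). This gene lies in the second A9 block, so that its p-value restates in part the scan that set the block. In the first A9 block and the third A9 block R8Q10 stood at -0.04 and 0.03 from the reference, while A28 stood at 1.01 and 0.82 and YH25005 at 0.93 and 0.96. The count in the second A9 block was 9 without replicate 3 of SW.

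Summed over all members, C9 had 352 ± 30.9 CPM in A28 (SD, n = 3), 1099 ± 129 in YH25005, 1458 ± 133 in R8Q10 and 2170 ± 195 in SW. Of the YH25005 sum, 897 CPM came from the fourth block, where YH25005 was raised. The 79 genes low in both lines gave 202 CPM in YH25005 and 279 in A28. All C9 sums and shares below include the fourth block and do not measure the depth of the low stretch. A9 had 1986 ± 167 in SW, 2204 ± 168 in R8Q10, 3712 ± 205 in A28, and 7602 ± 1584 in YH25005, of which BnaA09g02110D alone contributed 3805 in the mean. Without the 5 most abundant members of each chromosome, the A9 sums of A28 and YH25005 were alike, at 2897 ± 101 and 2912 ± 119, against 1773 ± 48.4 in R8Q10 and 1405 ± 25.8 in SW. The C9 sums were then 311 ± 36.0 in A28, 458 ± 34.2 in YH25005, 1045 ± 53.2 in R8Q10 and 1440 ± 56.4 in SW. Over both chromosomes together, still without those members, the lines lay closer, at 3207 ± 131 in A28, 2818 ± 97.3 in R8Q10, 3370 ± 151 in YH25005 and 2845 ± 74.0 in SW. With all members they did not, since the A9 sum of YH25005 alone was 7602. The C9 share of the total without those members was 9.67% ± 0.78 in A28, 13.6% ± 0.48 in YH25005, 37.1% ± 0.74 in R8Q10 and 50.6% ± 0.81 in SW. In the authors' FPKM values, which are per transcript length and not TMM-scaled, the C9 sums were 337 ± 31.5 in A28, 711 ± 49.3 in YH25005, 1404 ± 250 in R8Q10 and 2021 ± 282 in SW, in the same order as in CPM.

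**Figure D5:**
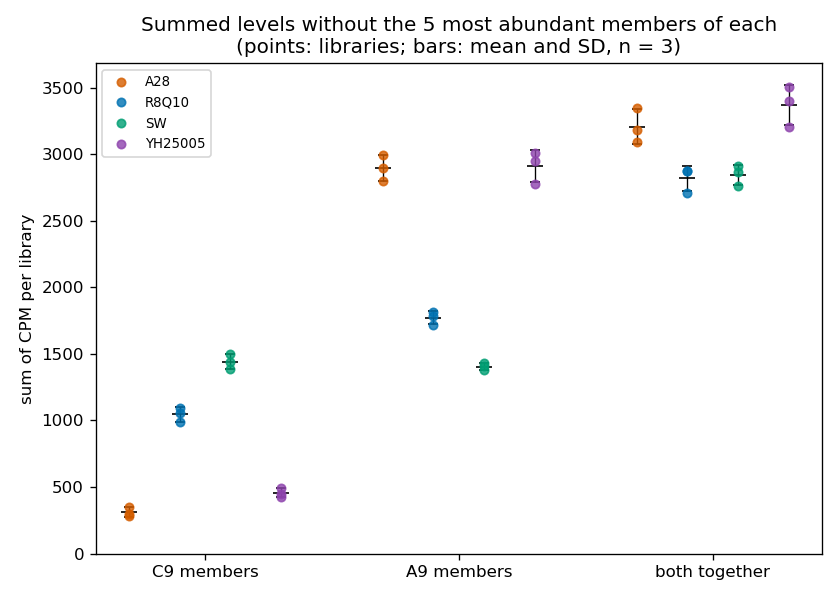
Summed CPM per library over the C9 members, the A9 members and both, without the 5 most abundant members of each chromosome, on an axis from 0. Points are libraries and bars are the mean and SD of 3 libraries per line. A28 and YH25005 are lowest on C9 and highest on A9, and the 4 lines lie between 2818 and 3370 CPM in their means for both together. The C9 members include the fourth block, where YH25005 is raised.

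A further 43 genes with IDs in these ranges, which are no members, were listed for A28 and R8Q10 alone or for SW and YH25005 alone, 29 of them on C9 and 14 on A9, and have no values in the other lines. In the second C9 block, 12 genes were listed for SW and YH25005 alone. They had means of 1.49 to 49.4 CPM in SW and at most 0.627 in YH25005, where 7 had 0 counts. In the third C9 block, 7 genes were listed for A28 and R8Q10 alone, with means of 1.23 to 9.22 CPM in R8Q10 and at most 0.326 in A28. These genes are left out of every count above.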

How the data were processed

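The files give, per the file headers, raw counts and FPKM for every listed gene of a library. The deposited counts, all whole, were tested, and the deposited FPKM values entered sums only. Per the submitters' processing notes, bcl2fastq, HISAT2 and DESeq2 were used. The build, the annotation and the counter are not stated in those notes or labels. Libraries were poly-A selected with a kit whose protocol, per the labels, does not mention strand, so overlapping and antisense genes cannot be told apart.

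The 43708 genes listed in all 12 files were fitted in R 4.3.3 with edgeR 4.0.16 (TMM factors, F test of the quasi-likelihood fit, library size over all listed genes, 1 coefficient per line), with Benjamini-Hochberg adjustment over all of them at 0.05. The filter on low counts removed 0 genes. DESeq2 1.42.0, other scalings, pseudocounts, filters, reference lines, scan settings and left-out libraries were alternatives. The fit and the scan were tested on simulated data. The scan added each gene's difference from the reference less an offset of 1 (low, held within 2) or 0.5 (raised, held within 1) over the first 400 genes at 1 CPM or more, and kept runs scoring at least 10. Scans of single libraries and of R8Q10 against SW (on A9 with an offset of 0.25) were chosen after seeing the data.

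The members, the tests and the rules were chosen with earlier results of these data known. Named genes were the 8 most abundant C9 members in a low stretch, genes of at least 5 CPM beside each edge, the most abundant C9 members near the reference level inside the stretch, the 6 most abundant A9 members, the largest non-overlapping differences per chromosome and direction, and members in RefSeq. The first and last members and the genes beside them are named whatever their level. Folds against 0 counts used 3 counts over the line's 3 libraries, on TMM-scaled CPM. Floors cover counting error only, whereas SD and SE also reflect the scatter among libraries.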

Additional observations from a re-analysis of the deposited data

Results flagged for a closer look

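The genes BnaC09g02540D, BnaC09g02550D, BnaC09g02560D, BnaC09g02690D, BnaC09g02780D and BnaC09g02810D stood apart because A28 was lower and YH25005 higher than both R8Q10 and SW in the edgeR fit, and the difference between A28 and YH25005 itself passed the test. A28 minus YH25005 was -4.98 for BnaC09g02540D, -3.13 for BnaC09g02550D, -7.80 for BnaC09g02560D, -3.87 for BnaC09g02690D, -5.20 for BnaC09g02780D and -4.12 for BnaC09g02810D on the scale log2(CPM + 0.5). All 6 lie in the fourth C9 block, which runs from the far YH25005 edge to the end of the ID range. Both bounds were chosen from these levels, so that the calls restate the choice in part. With A28 below and YH25005 above the same lines, the call between A28 and YH25005 adds no support.

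Some signal lay in genes of the ID ranges that only some files list and that no comparison used. The highest means were 49.4 CPM in SW for BnaC09g00580D, where YH25005 had 0.0802, and 9.22 CPM in R8Q10 for BnaC09g01740D, where A28 had 0.0945. On A9 they were 12.1 CPM in YH25005 for BnaA09g00710D, where SW had 0.0197, and 20.5 CPM in R8Q10 for BnaA09g01220D, where A28 had 1.79.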

How the results depend on the processing

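Fitting the compared lines alone moved the A9 members called between A28 and YH25005 to 21 and those higher in A28 than in both reference lines to 13. Over all lines the replicate numbers do not pair the libraries (9 of 18 same-number pairs correlate above 0.1, among them all 3 of A28 and R8Q10, and 6 of 12 libraries correlate best with their own number), and the replicate block gave 46 and 32 C9 and A9 members called between A28 and YH25005 and 24 and 27 between R8Q10 and SW. Against both reference lines it gave 69 and 57 C9 members lower in A28 and YH25005 and 38 and 41 A9 members higher. The median difference of the low C9 stretch was -2.45 over the members for A28 and -2.55 for YH25005. It moved to -2.92 and -3.83 with a pseudocount of 0.1, -1.92 and -2.03 with 1, -2.17 and -2.42 against R8Q10 alone, and -2.61 and -3.05 against SW alone, and with library totals only to -2.66 in YH25005. On A9 it moved to 0.91 in A28 against SW alone. In YH25005 it moved to 0.52 with library totals only, 0.94 with a pseudocount of 0.1, 0.85 with 1, 0.91 at 5 CPM or more, 0.72 against R8Q10 alone and 0.97 against SW alone. In A28, an offset of 2 shortened the low C9 stretch to 60 genes, starting at BnaC09g01120D, and an offset of 0.75 the raised A9 stretch to 43. In YH25005 no raised A9 stretch was found with an offset of 0.75 or with library totals only. Without the 5 most abundant members the sums were as given above (C9: 311, 1045, 1440 and 458 CPM; A9: 2897, 1773, 1405 and 2912 CPM, for A28, R8Q10, SW and YH25005), and library totals only gave 1595 (C9, R8Q10), 896 (C9, YH25005), 4050 (A9, A28) and 2410 (A9, R8Q10). The causes were not tested. Leaving out 1 library gave 40 to 52 C9 and 13 to 55 A9 members called between A28 and YH25005, and 19 to 27 and 18 to 32 between R8Q10 and SW. Against both reference lines, 63 to 69 C9 members were lower in A28 and 53 to 59 in YH25005, and 23 to 43 A9 members were higher in A28 (23 without replicate 1 of R8Q10) and 25 to 45 in YH25005 (25 without replicate 1 of YH25005). Blocks gave 12 to 15 (the second C9 block, R8Q10 below SW), 18 to 19 (the fourth C9 block, A28 below YH25005), 9 to 16 (the second A9 block, R8Q10 above SW) and 21 to 33 (low in both, A28 against YH25005). Stretches held 100 to 101 (C9, A28), 79 to 79 (C9, YH25005), 145 to 147 (A9, A28) and 130 to 133 genes (A9, YH25005), with medians of -2.48 to -2.32, -2.62 to -2.50, 0.75 to 0.88 and 0.86 to 0.92. For the named genes, 1111 of 1189 values kept direction and call, 78 lost the call and 0 turned. Genes at a few counts are limited by depth.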

Other observations

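Over the 79 C9 genes low in both lines, log2 levels of A28 and YH25005 had a Pearson r of 0.684 and a Spearman rho of 0.669 across genes, against 0.537 and 0.559 for R8Q10 and SW. Genes are not independent replicates and share their length and base composition, so these values are a description. The choice of genes also sets them in part. The 79 genes were taken as low in A28 and YH25005, and 11 were at 0 in both. The second block gave 15 of them, and there R8Q10 was at 7.03% of the SW sum. BnaA09g01600D, picked after its values were seen, had 0.0790 CPM in replicate 1 of R8Q10 and 42.0 and 34.7 in the other replicates, while SW had 0.110 to 0.120, A28 12.7 to 22.6 and YH25005 70.5 to 86.5.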
